A study of Mus musculus with 31 samples.

Results

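The response of the mouse hippocampus to a T cell antigen made by neurons was compared between 5 days and 28 days after injection of the vector, across all 15648 genes tested. The comparison was between 16 of the 31 mice of the series, 4 in each of 4 groups, and all 31 entered the fit, where they shared the covariates and the estimate of spread. The response at a day was the Log2FC of rAAV-OVA mice against rAAV-control mice of that day. The difference in response was the Log2FC at 5 days minus the Log2FC at 28 days, so that a value above 0 marks a gene whose response lay higher at 5 days. The same comparison was then made in the 12 mice of batch 1 alone, with 4 rAAV-OVA and 4 rAAV-control mice at 5 days and 2 of each at 28 days.

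All 4 groups were adult mice of the genotype labelled OT-I/Rag-/-. Such mice carry a transgenic receptor that lets CD8 T cells recognise a peptide of ovalbumin, and without Rag1 they make no other T cells and no B cells. The rAAV-OVA groups received rAAV-hSyn-OVA-mCherry, an adeno-associated viral vector for ovalbumin and the red fluorescent protein mCherry, and the rAAV-control groups received rAAV-hSyn-mCherry, which gives mCherry alone. The human synapsin promoter of both vectors limits expression to neurons, both dorsal CA1 regions were injected under the analgesic ketoprofen, and RNA of the left hippocampus was sequenced. Both groups of 5 days were in batch 1, whereas each group of 28 days held 2 mice of batch 1 and 2 of batch 2. What the batch label stands for is not given in the sources used here. Totals ran from 22523788 to 57407902 counts per mouse among the 16 mice, with a median of 28059073.

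CD8 T cells that meet their antigen release cytotoxic granules and interferon-gamma, and interferons switch on guanylate-binding proteins, antigen presentation and antiviral genes in the cells around them. Neurons that fire strongly or are injured transcribe immediate early genes first and secreted factors and neuropeptides afterwards. Astrocytes and microglia leave their resting state in inflamed tissue, and microglia near lasting damage take on a program that includes Apoe and Spp1. In bulk RNA, fewer cells of a type and less RNA per cell cannot be told apart.

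Promoter sequences are shown first, because interferon-stimulated and activity-regulated genes carry short motifs near their start sites that a reader can look for. Of the 14801 symbols tested, 11563 had a promoter in the RefSeq table for GRCm38.p6, each running from 250 bases before to 50 bases after the start. Gbp7, a guanylate-binding protein, and Stat2, a transducer of interferon signals, are shown with the core of the interferon-stimulated response element, searched as GAAANNGAA on both strands, in capitals where it was read from the opposite strand. Scg2, the precursor of the neuropeptide secretoneurin, is shown with the cyclic AMP response element TGACGTCA in capitals.
Gbp7, chr3:142530086-142530385, plus strand: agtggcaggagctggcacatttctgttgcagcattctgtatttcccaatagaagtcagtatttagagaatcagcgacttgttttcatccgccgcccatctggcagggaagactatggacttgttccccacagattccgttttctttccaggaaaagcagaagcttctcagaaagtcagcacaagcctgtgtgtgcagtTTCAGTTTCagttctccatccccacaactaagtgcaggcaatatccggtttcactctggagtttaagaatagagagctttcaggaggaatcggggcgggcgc
Stat2, chr10:128270248-128270547, plus strand: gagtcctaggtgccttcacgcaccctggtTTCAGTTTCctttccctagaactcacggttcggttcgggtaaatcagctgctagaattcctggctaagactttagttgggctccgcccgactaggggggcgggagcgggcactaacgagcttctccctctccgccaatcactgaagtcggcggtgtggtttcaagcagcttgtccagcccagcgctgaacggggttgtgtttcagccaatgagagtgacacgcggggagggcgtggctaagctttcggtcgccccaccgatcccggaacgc
Scg2, chr1:79439977-79440276, minus strand: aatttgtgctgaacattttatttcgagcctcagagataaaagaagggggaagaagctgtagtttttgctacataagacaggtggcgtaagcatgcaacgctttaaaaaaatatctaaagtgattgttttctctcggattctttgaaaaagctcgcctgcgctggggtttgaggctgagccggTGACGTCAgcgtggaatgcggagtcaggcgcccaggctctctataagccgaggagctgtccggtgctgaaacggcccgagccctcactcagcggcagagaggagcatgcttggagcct

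The interferon-stimulated core was found in 8.71% of all 11563 promoters and in 16 of 27 promoters (59.3%) of type I interferon stimulated genes. It was found in 12 of 71 promoters (16.9%) of the genes whose response was higher at 5 days and increased then, against 15 of 153 (9.8%), 15 of 141 (10.6%) and 5 of 96 (5.21%) in the other 3 classes described below. The gamma-activated sequence TTCNNNGAA stood in 8.11% of all promoters, in 10 of 18 promoters (55.6%) of interferon-gamma GTPases and regulators, and in 9 of 71 (12.7%) of the first class. Lists with no tie to interferon held these motifs too, with the gamma-activated sequence in 4 of 12 promoters (33.3%) of activity-regulated neuropeptides and the interferon-stimulated core in 3 of those 12 and in 5 of 21 (23.8%) of immediate early genes. The cyclic AMP response element stood in 3.43% of all promoters and in 2 of 12 promoters (16.7%) of activity-regulated neuropeptides, those of Scg2 and Sst. These letters are a description of the windows and not evidence of binding, and a promoter could hold several of the motifs.

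The response differed between 5 and 28 days for 959 genes by the quasi-likelihood test of edgeR, adjusted by the method of Benjamini and Hochberg (FDR of at most 0.05 and a difference of at least 0.66 in Log2FC). Fitted to the 16 mice alone, 516 genes passed, 459 of them among the 959. In the fit to all mice the response lay higher at 5 days for 361 genes (2.31% of all genes) and lower for 598 (3.82%). At 5 days 1507 genes were increased (9.63%) and 739 decreased (4.72%), and at 28 days 1999 were increased (12.8%) and 764 decreased (4.88%). The 2 rAAV-control groups differed from each other for no gene under the same limits, with 1569 genes at an unadjusted p under 0.05, whereas the 2 rAAV-OVA groups differed for 1745. Of the 959 genes, 913 (95.2%) differed more between the rAAV-OVA groups than between the rAAV-control groups, against 10309 (65.9%) of all genes.

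**Figure D1:**
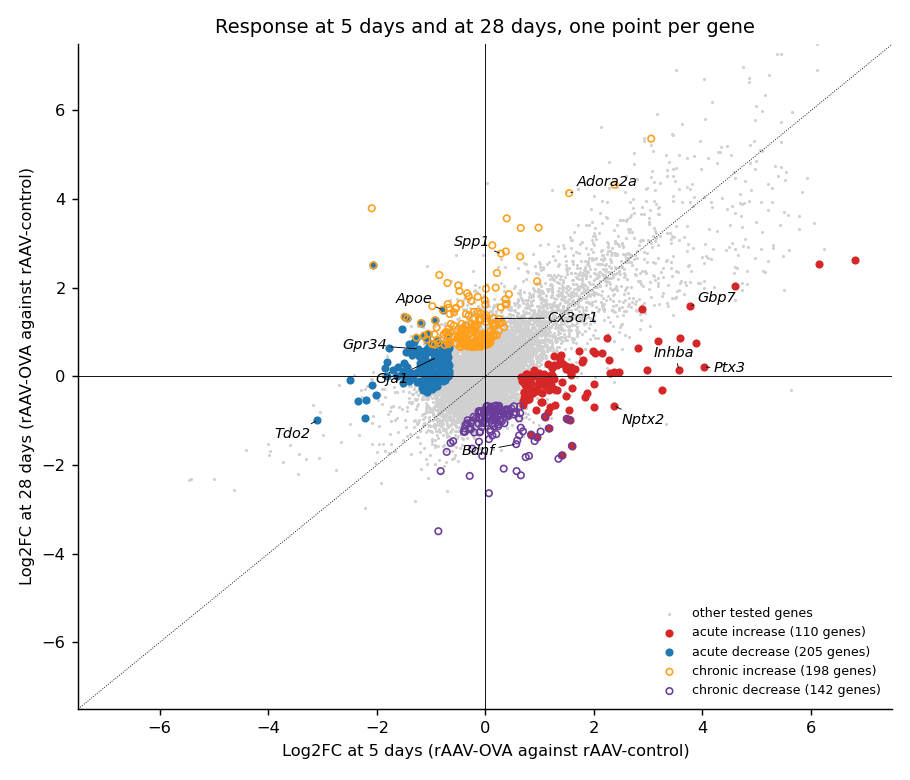
Log2FC of each gene at 5 days (x axis) and at 28 days (y axis), rAAV-OVA against rAAV-control, with 4 mice per group and 5 genes outside the axes. Filled and open circles mark the 110, 205, 198 and 142 genes of the 4 classes, which lie off the dotted line of equal response, and grey points are all other genes tested.

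Sorted by which day was called, 110 genes were acute increases (difference above 0, increased at 5 days), 205 acute decreases, 198 chronic increases (difference below 0, increased at 28 days) and 142 chronic decreases. Of these, 8 genes were increased at 5 days and decreased at 28 days, 18 were decreased and later increased, and 330 of the 959 reached the limits at neither day in the direction that a class needs. A further 1244 genes were called in the same direction at both days without a called difference, 1078 increased and 166 decreased.

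The fit to the 12 mice of batch 1 had no surrogate variables, so it differed from the fit to all mice in both the mice and the covariates, and values given for batch 1 come from it unless another fit is named. No gene passed the limits there by edgeR's quasi-likelihood test, with a lowest FDR of 0.0564 and 2377 genes at an unadjusted p under 0.05. Without surrogate variables, 400 genes passed in all 31 mice, and with them 288 passed in all 23 mice of batch 1, of which 217 were among the 959. In the 12 mice the sign of the difference was that of all mice for 958 of the 959 genes and for 13059 of all 15648. These 12 mice also helped to choose the 959 genes. Agreement in sign, and in the medians that follow, is thus in part set by that choice and is no separate replication. The median difference of the acute increases was 1.34 in all mice and 1.32 in batch 1, and that of the acute decreases −1.20 and −1.01. For the chronic increases it was −1.32 and −0.99, and for the chronic decreases 1.07 and 0.75. With each of the 16 mice left out in turn, 224 of the 959 genes (23.4%) passed every time and all 959 kept their sign. Among the 224 were 46 acute increases, 76 acute decreases, 46 chronic increases and 32 chronic decreases, where a gene of a pair of classes counts in both and genes of no class are left out.

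Mice that stood apart bear on some of these genes. Mouse D844 (rAAV-OVA, 28 days, batch 2) had 1110 CPM (counts scaled to the size of the library) summed over 13 markers of other brain regions, where the other 15 mice had 122 to 269 CPM, and its T cell and interferon genes were the lowest of the 4 mice. Mouse D845 (rAAV-OVA, 28 days, batch 2) had 8220 CPM over 10 choroid plexus markers against 448 to 810 CPM in the other 3, while the controls of that day ran from 284 to 6500 CPM. The rAAV-control mouse D724 at 5 days had 5760 CPM against 257 to 373. Without D844, 343 of the 959 genes were still called, and without D845, 453. The part of tissue content in the difference was not tested, nor whether these libraries belong to the mice they are labelled with.

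Genes that neuronal activity regulates were among the acute increases. Of 19 activity-regulated neuropeptides and secreted factors tested, the response lay higher at 5 days for 10 and lower for none (2.31% and 3.82% of all genes). In this list 7 genes rose and 1 fell at 5 days, and 3 rose and 7 fell at 28 days. The median Log2FC was 0.70 at 5 days and −0.21 at 28 days, and the median difference was 0.97 in all mice and 1.00 in batch 1, against −0.02 over all genes. Without D844 the difference was above 0 for 8 of the 19, and at 28 days 4 rather than 7 fell, none rather than 3 rose and the median was −0.54.

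Inhba encodes a subunit of activin, a secreted factor that neurons make under strong activity. At 5 days it stood at 76.8, 60.6, 53.6 and 126 CPM in the rAAV-OVA mice and at 7.7, 10.4, 5.38 and 5.97 CPM in the rAAV-control mice. At 28 days it stood at 4.44, 11, 21.6 and 5.31 CPM in rAAV-OVA mice D661, D667, D844 and D845, and at 6.51, 7.41, 13.3 and 10.3 CPM in controls. The groups were far apart at 5 days and overlapped at 28 days. The Log2FC was 3.57 at 5 days (FDR 6.48e-06) and 0.15 at 28 days (FDR 0.782), a difference of 3.42 (SE 0.54, FDR 0.000581) that was 3.27 in batch 1 and passed with every mouse left out.

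Nptx2, a secreted pentraxin that gathers glutamate receptors at synapses, had 258, 150, 131 and 259 CPM in rAAV-OVA mice at 5 days and 38.9, 43.3, 27.1 and 28.7 CPM in controls. At 28 days the values were 17.4, 25.7, 30.5 and 11.4 CPM, and 26.5, 27.6, 32.8 and 30.3 CPM in controls. Every rAAV-OVA mouse of 5 days thus lay above all 12 other mice, and 3 of those of 28 days lay below every control. The difference was 3.04 (SE 0.38, FDR 9.94e-05), 2.85 in batch 1. Ptgs2, the inducible cyclooxygenase, was increased at 5 days (Log2FC 0.95, FDR 0.0238) and decreased at 28 days (Log2FC −1.37, FDR 0.00349). Without D844 the latter was −0.78 (FDR 0.12) and no longer called.

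Bdnf, the neurotrophin that is released with activity, differed mainly through its level at 28 days. At 5 days it stood at 91.2, 52.7, 50.5 and 82.4 CPM in rAAV-OVA mice and 51.4, 44.9, 31.8 and 34.8 CPM in controls. By 28 days its values were 17.2, 25.2, 8.93 and 8.98 CPM, and those of controls 37.7, 26.1, 43.3 and 36.6 CPM. The groups overlapped at 5 days and were apart at 28 days, where D844 and D845 were the lowest. The Log2FC was 0.57 (FDR 0.0872) at 5 days and −1.53 (FDR 0.000303) at 28 days (−0.87 without D844, FDR 0.0156), and the difference of 2.10 (SE 0.33, FDR 0.000581) was 1.35 in batch 1.

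Of 26 immediate early genes, 7 rose and none fell at 5 days, 5 rose and 2 fell at 28 days, and the difference was above 0 for 5 (3 without D844). Fosl2, a Fos-related transcription factor, had a difference of 1.33 (SE 0.20, FDR 0.000547), with 117 to 148 CPM in rAAV-OVA mice at 5 days and 39.3 to 91.5 CPM in the other 12 mice. Npas4, a transcription factor that calcium entry induces, stood at 14.2, 47.5, 34.6 and 128 CPM in rAAV-OVA mice at 5 days and at 17.4, 12.6, 17.1 and 12.7 CPM in controls, which overlapped. Its difference was 2.70 (FDR 0.0163), and without D844 it was 2.62 with an FDR of 0.056. Scg2 and Vgf, both granule proteins cleaved into neuropeptides, had differences of 1.10 (FDR 0.0425) and 0.97 (FDR 0.0239). They passed in 8 and 12 of the 16 fits with 1 mouse left out.

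Some genes that neurons induce after axonal damage were acute increases. Of 18 neuronal injury genes, 10 rose and 1 fell at 5 days, 2 rose and none fell at 28 days, and the difference was above 0 for 3 and below 0 for 1. Tnfrsf12a, the receptor for the cytokine TWEAK, stood at 37.8, 15.3, 17.3 and 33.5 CPM in rAAV-OVA mice at 5 days against 1.66, 2.85, 2.26 and 2.94 CPM in controls. At 28 days both groups lay between 1.98 and 5.11 CPM. The groups were apart at 5 days and overlapped at 28 days, with a difference of 2.82 (SE 0.47, FDR 0.000858). Lif, a cytokine of the interleukin-6 family, and Gadd45b, a stress-induced regulator of DNA repair, had differences of 2.72 and 1.11 and passed with every mouse left out. Bbc3, a promoter of cell death, went the other way (difference −0.98, FDR 0.0314) and passed in 10 of 16 fits.

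Of the 6 acute increases with the largest differences that met the naming rule, Inhba, Gpr151 and Alkal2 passed with every mouse left out. Gpr151, a receptor of habenular and injured neurons, had a difference of 3.55 (SE 0.78, FDR 0.00676), and Alkal2, a ligand of the receptor ALK, had 3.16 (SE 0.54, FDR 0.000949). Gzmb, the granule protease of cytotoxic T cells, stood at 44.6, 11.6, 42 and 26.5 CPM in rAAV-OVA mice at 5 days and at 8.57, 5.04, 0.586 and 6.41 CPM at 28 days, with at most 0.808 CPM in the 8 controls. The value of 0.586 CPM, that of D844, lay within the range of its controls. The difference of 4.17 (SE 1.24, FDR 0.0359) was 0.53 in batch 1 and passed in 8 of 16 fits, and without control mouse D843 it was 2.50 (FDR 0.357). Ptx3, a secreted pentraxin of inflamed tissue, had a difference of 3.83 (FDR 0.0132), which was 3.06 without D844 (FDR 0.129) and 3.41 without D851 (FDR 0.063).

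**Figure D2:**
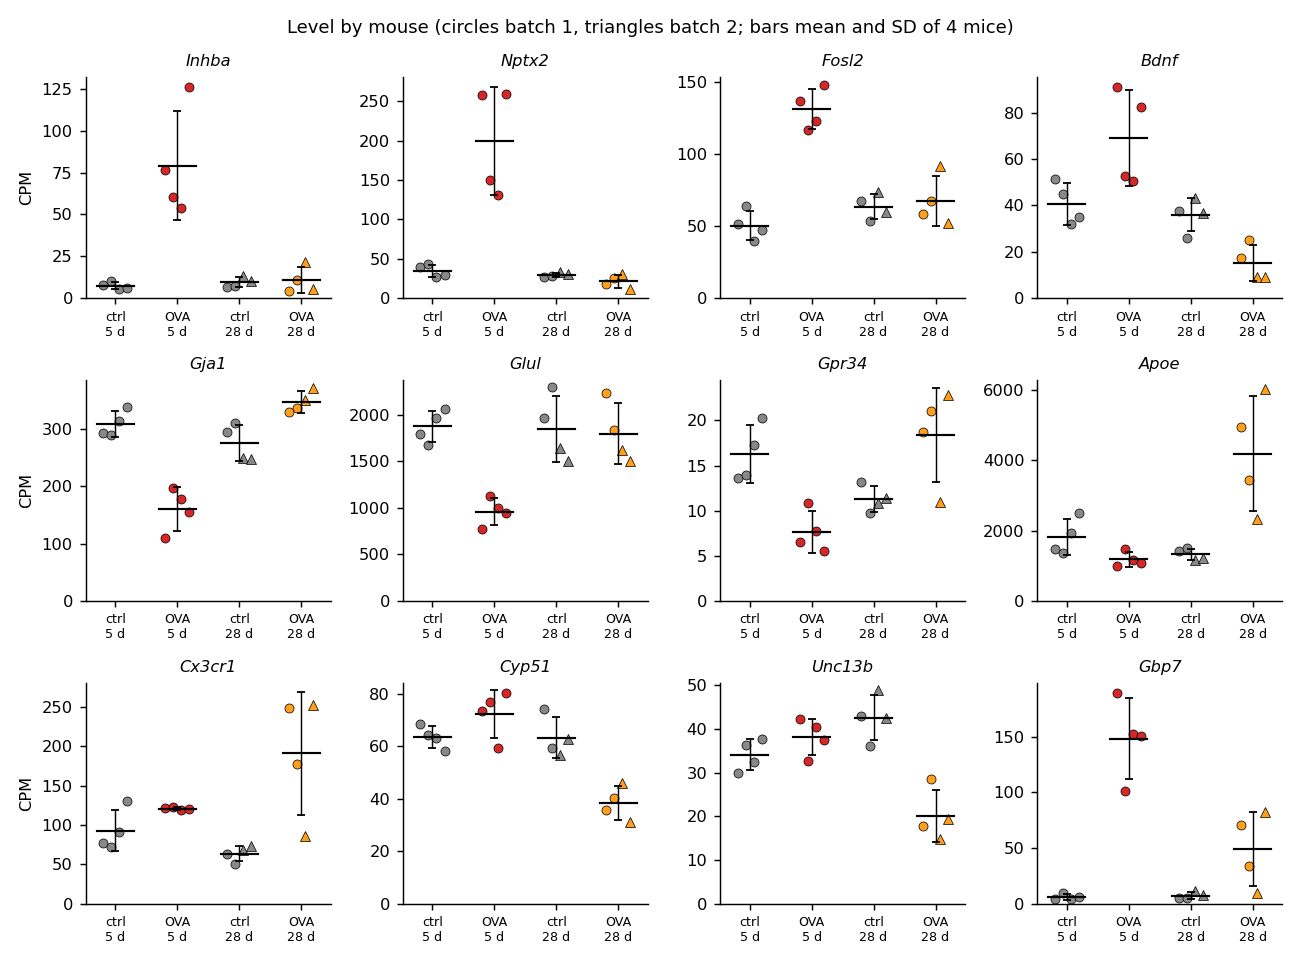
Level of 12 genes in each of the 16 mice, in CPM (y axis), for rAAV-control (ctrl) and rAAV-OVA (OVA) mice at 5 and 28 days, with bars for the mean and SD of 4 mice. Inhba, Nptx2 and Fosl2 stand above all other groups at 5 days, Gja1 and Glul below them, and the mean of Apoe is highest in rAAV-OVA mice at 28 days.

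Interferon genes were increased at both days, and few of them were called as different between the days. Of 37 type I interferon stimulated genes, 35 rose at 5 days and 20 at 28 days, none fell, and the difference was called for 1. Of 30 interferon-gamma GTPases and regulators, 27 rose at each day and the difference was called for 3, all above 0. The median Log2FC of the former was 2.82 and 1.62, and of the latter 3.96 and 2.38. Without surrogate variables these medians were larger, at 3.64 and 2.78 for the former and 5.05 and 3.92 for the latter. The median difference was 1.21 and 1.56 in all mice, 0.96 and 1.01 in all mice without surrogate variables and 0.16 and −0.21 in batch 1, and without D844 no member of either list was called, with median differences of 1.19 and 1.41.

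Gbp7, whose promoter is shown above, stood at 189, 101, 152 and 151 CPM in rAAV-OVA mice at 5 days and at 3.8, 9.72, 4.45 and 6.46 CPM in controls. The values of 28 days were 70.8, 33.6, 9.86 and 82.1 CPM in D661, D667, D844 and D845, and 4.72, 5.49, 11.2 and 8.1 CPM in controls. D844 lay among the controls, and the other 3 lay between the controls and the mice of 5 days. The difference of 2.18 (SE 0.64, FDR 0.0336) was 1.23 in batch 1 and passed in 4 of 16 fits. Stat2 had Log2FC values of 1.98 at 5 days (FDR 8.76e-05) and 0.57 at 28 days (FDR 0.163), and its difference of 1.41 (FDR 0.0287) passed in 10 of 16 fits. F830016B08Rik and Gbp11, the other called members of the GTPase list, passed in 5 each.

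The acute decreases held some markers of resting astrocytes. Of 22 homeostatic astrocyte genes, 7 fell and none rose at 5 days, 1 rose and none fell at 28 days, and the difference was below 0 for 7 and above 0 for none. The median Log2FC was −0.54 at 5 days and 0.14 at 28 days, and the median difference was −0.65 in all mice and −0.52 in batch 1. All 4 rAAV-OVA mice of 5 days lay below the mean of their controls over the list, by 0.29 to 0.62 on the log2 scale, and all 4 of 28 days lay above it, by 0.07 to 0.26. The latter did not hold within batch 1, where D667 lay below both controls of its batch and the median Log2FC at 28 days was −0.03, and in groups split by batch it was −0.04 in batch 1 and 0.26 in batch 2. Without D844 6 members were called below 0. Not all astrocyte markers went this way. Over the 16 fits with 1 mouse left out, the difference of Aqp4 ran from −0.18 to 0.12 and that of Gfap from −0.68 to 0.16. Neither was called in any of these fits. Slc1a3 ran from −0.77 to −0.50 and passed in 8.

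Gja1 encodes connexin 43, the gap junction protein of astrocytes. It stood at 109, 197, 178 and 155 CPM in rAAV-OVA mice at 5 days and at 292, 290, 313 and 338 CPM in controls. After 28 days it measured 329, 337, 351 and 372 CPM, and 295, 310, 250 and 247 CPM in controls. The rAAV-OVA mice lay below every control at 5 days and above every control at 28 days. The difference was −1.33 (SE 0.20, FDR 0.00054) and −1.09 in batch 1. Mfge8, a bridging protein for the uptake of dying cells, Mlc1, a membrane protein of astrocyte endfeet, and Slc39a12, a zinc transporter, had differences of −1.34, −1.31 and −1.04, and all 4 genes passed with every mouse left out. Glul, the glutamine synthetase that clears glutamate, was picked after its values were seen: it stood at 769, 1130, 1000 and 944 CPM at 5 days against 1680 to 2060 CPM in controls, and its difference was −0.95 (FDR 0.0103). At 28 days the groups overlapped, at 1500 to 2240 and 1500 to 2300 CPM.

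Myelin genes had the lowest median among the glial lists at 5 days. Of 20 myelin and oligodendrocyte genes, 13 fell at 5 days and none rose, and at 28 days none was called in either direction. The median Log2FC was −0.75 and −0.11, and the median difference was −0.68 both in all mice and in batch 1. The difference itself was called for 1 gene only, Plekhb1, a membrane protein of myelin and photoreceptors, with −1.08 (SE 0.26, FDR 0.0111), which without D844 was −0.76 (FDR 0.0807). Without control mouse D724 the difference was called for 4 of the 20 genes. Mbp, a structural protein of myelin, had 1810, 2220, 1410 and 1940 CPM in rAAV-OVA mice at 5 days and 2590, 2230, 3020 and 4040 CPM in controls. Those groups did not overlap, and its difference of −0.84 had an FDR of 0.107.

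Other acute decreases came from clock genes and blood. Of 15 circadian clock genes, 5 fell and 1 rose at 5 days, none was called at 28 days, and the difference was below 0 for 3. The median difference was −0.36 in all mice and −0.03 in batch 1, where the list had medians of −0.65 at 5 days and −0.56 at 28 days and so was about equally low at both. Dbp, a transcription factor under direct control of the clock, stood at 12.4, 22.4, 15.5 and 10.8 CPM in rAAV-OVA mice at 5 days and 42.5, 40.9, 57.1 and 55.7 CPM in controls. The groups were apart at 5 days, whereas at 28 days the rAAV-OVA mice (36.9 to 67.2 CPM) lay within the range of the controls (34.5 to 68.8 CPM). The difference was −1.63 (SE 0.32, FDR 0.00277) and −0.89 in batch 1. The time of day of dissection is not given in the sources used here, and its part in the result was not tested. All 4 blood genes fell at 5 days and the difference was called for 3, and for 0 without D844 or without D845. Summed, the blood markers stood at 62.7 to 272 CPM in rAAV-OVA mice at 5 days against 254 to 829 CPM in controls, and without the highest control, D745, none of the 4 was called. The same loss was seen for choroid plexus markers, of which 9 of 10 fell at 5 days. None fell without control mouse D724, and none without D845, a mouse of 28 days.

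Among the largest acute decreases, Adh1 and Clec3b were also increased at 28 days, Clec3b no longer so without D844 (FDR 0.566) or without D845 (FDR 0.333). Adh1, an alcohol dehydrogenase that oxidises retinol, stood at 0.194, 0.154, 0.398 and 0.303 CPM in rAAV-OVA mice at 5 days and at 0.716, 1.39, 0.779 and 0.502 CPM in controls. On day 28 it reached 2.17, 1.83, 1.38 and 9.15 CPM against 0.22, 0.595, 0.385 and 0.642 CPM. The rAAV-OVA mice lay below the controls at the first day and above them at the second, with a difference of −4.57 (SE 0.85, FDR 0.00201) that was −3.97 in batch 1. Igsf1, a membrane glycoprotein, had a difference of −2.42 (FDR 0.00126). Both genes passed with every mouse left out. Clec3b, Col13a1 and Ltc4s, with differences from −2.75 to −2.40, lost their call without D845 (FDR 0.0606, 0.0521 and 0.108), and Clec3b and Ltc4s also without D844 (FDR 0.0841 and 0.0801).

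**Figure D3:**
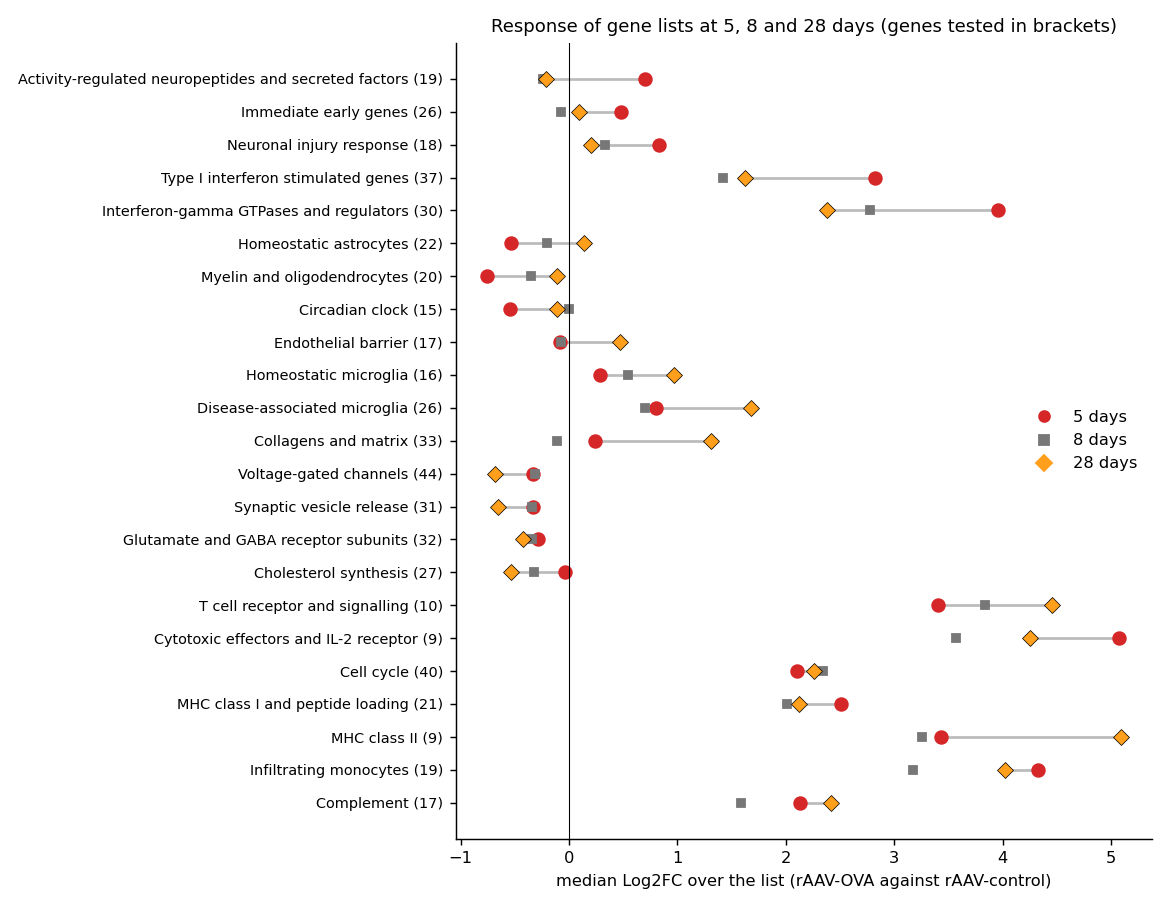
Median Log2FC of each gene list (x axis) at 5, 8 and 28 days, rAAV-OVA against rAAV-control, with the number of genes tested in brackets. Neuropeptide genes are above 0 at 5 days (0.70) and below 0 at 8 and 28 days (−0.24 and −0.21), resting astrocyte and myelin genes are lowest at 5 days, and T cell, cell cycle and monocyte genes are high at all 3 days.

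Several microglial genes had a response that lay higher at 28 days. Of 16 homeostatic microglia genes, 4 rose and 1 fell at 5 days and 11 rose at 28 days, with the difference below 0 for 3. Of 26 genes of disease-associated microglia, 13 rose and 2 fell at 5 days and 20 rose at 28 days, with the difference below 0 for 2. These 3 of 16 and 2 of 26 stand beside the 3.82% of all genes, so the share of the second list is near that background. The medians of the latter list were 0.80 and 1.68, and the median difference was −0.75 in all mice and −1.06 in batch 1. Without D844 the counts at 28 days were again 11 and 20, and the differences below 0 were 3 in each list. Without control mouse D724, none of the former and 7 of the latter rose at 5 days. In D844 the disease-associated genes lay 0.67 above the controls on the log2 scale, against 2.23 to 3.03 in the other 3 rAAV-OVA mice of 28 days and 1.46 to 1.69 in those of 5 days.

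Apoe, the lipid carrier of astrocytes and of activated microglia, had the lowest FDR in this list. It stood at 980, 1480, 1160 and 1090 CPM in rAAV-OVA mice at 5 days and at 1480, 1360, 1940 and 2500 CPM in controls. The mice of 28 days had 4950, 3440, 2330 and 6030 CPM, and their controls had 1410, 1510, 1150 and 1220 CPM. The groups overlapped at 5 days, and every rAAV-OVA mouse of 28 days, D844 included, lay above every control. The Log2FC was −0.79 (FDR 0.00913) at 5 days and 1.50 (FDR 9.97e-05) at 28 days, a difference of −2.29 (SE 0.29, FDR 9.94e-05) that was −2.15 in batch 1 and passed with every mouse left out. Spp1, the secreted phosphoprotein osteopontin, had a difference of −2.48 (FDR 0.0295) and lost its call without control mice D755, D843 or D851 (FDR 0.0833, 0.0557 and 0.0697).

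Cx3cr1, the fractalkine receptor of microglia, stood at 122, 123, 119 and 120 CPM in rAAV-OVA mice at 5 days and at 77.6, 71.8, 91.4 and 130 CPM in controls. At 28 days it stood at 249, 177, 85.7 and 253 CPM against 63.2, 50.8, 67.8 and 73.3 CPM. The 4 mice of 5 days were nearly equal and overlapped the controls, and those of 28 days lay above them. The difference of −1.16 (SE 0.33, FDR 0.0302) was −1.52 in batch 1 and passed in 11 of 16 fits. Gpr34, a lysophosphatidylserine receptor of resting microglia, fell at 5 days, from 13.6 to 20.3 CPM in controls to 5.56 to 10.9 CPM in rAAV-OVA mice. On day 28 the values were 18.7, 21, 11 and 22.8 CPM against 9.7 to 13.2 CPM, a Log2FC of 0.62 (FDR 0.0595), and its difference of −1.86 (SE 0.33, FDR 0.00132) passed with every mouse left out. Tmem119, which marks microglia, was increased at both days (Log2FC 0.76 and 0.99), and its difference of −0.23 had an FDR of 0.708.

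Lag3, an inhibitory receptor that exhausted T cells and microglia carry, stood at 39.1, 31.2, 35.3 and 40.2 CPM in rAAV-OVA mice at 5 days and at 160, 86.9, 26 and 166 CPM at 28 days, against 8.15 to 24.1 CPM in all 8 controls. Both days were apart from their controls, with D844 the nearest. The fitted Log2FC was 0.64 at 5 days (FDR 0.266) and 2.70 at 28 days (FDR 0.000223). The 5-day mice are thus apart in CPM but not called, and the surrogate variables may take up part of a response. Without them, T cell receptor and signalling genes had a median Log2FC of 4.28 at 5 days and 5.77 at 28 days. With them it was 3.40 and 4.46. Their part in the values of Lag3 was not tested, so the difference is read with that limit. The difference of −2.06 (SE 0.54, FDR 0.0205) was −2.62 in batch 1 and lost its call without D661 or D755 (FDR 0.0616 and 0.0726). H2-DMb2, a chaperone of MHC class II loading, had a difference of −2.31 (FDR 0.0486), which passed in 5 of 16 fits.

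Several endothelial genes also had a higher response at 28 days. Of 17 endothelial barrier genes, 1 rose and 2 fell at 5 days, 4 rose at 28 days, and the difference was below 0 for 5 and above 0 for 1. Cldn5, the claudin of the blood-brain barrier, stood at 27.5, 25.4, 30.4 and 29.2 CPM in rAAV-OVA mice at 5 days and 37.2, 29.6, 44.6 and 44.2 CPM in controls. By 28 days its values were 42.4, 38.8, 39.7 and 65.4 CPM against 20.3, 13.7, 31.1 and 25.3 CPM. Only the second pair of groups was apart, with D845 the highest, and the difference of −1.52 (SE 0.36, FDR 0.012) was −1.73 in batch 1. Itm2a, a membrane protein of brain endothelium, fell at 5 days (Log2FC −0.86, FDR 0.00145) and rose at 28 days (Log2FC 0.75, FDR 0.00475), which without D844 was 0.63 and under the limit. The differences of both passed with every mouse left out. Mfsd2a, the endothelial transporter of docosahexaenoic acid and the member above 0, had a difference of 1.22 (FDR 0.0291) and passed in 11 of 16 fits. Without D845 the difference was below 0 for 2 of the 17 genes.

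Collagen and matrix genes depended on D845. Of 33, 9 rose and 1 fell at 5 days and 16 rose at 28 days, and the difference was below 0 for 6 and above 0 for 2. Col1a2, a chain of collagen I, stood at 15.2, 18.7, 29.4 and 227 CPM in D661, D667, D844 and D845 and at 9.81 to 31.9 CPM in the other 12 mice. D845 alone was high, the difference of −2.81 (FDR 0.0331) was −0.82 in batch 1, and without D845 no collagen or matrix gene was called below 0 and 8 rather than 16 rose at 28 days. In a fit with the groups split by batch, the median Log2FC at 28 days was 0.41 in batch 1 and 1.75 in batch 2. Tnc and Thbs1, matricellular proteins of wounds, lay on the other side, with differences of 1.62 (FDR 0.0245) and 2.16 (FDR 0.0284) that passed in 11 and 10 of 16 fits.

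For several of the largest chronic increases, 1 mouse lay far above the other 3. Adora2a and Rxrg, an adenosine receptor and a retinoid receptor of striatal neurons, stood at 112 and 42.4 CPM in D844 and at 4.69 to 11.5 and 3.42 to 5.41 CPM in the other 3 mice. Without D844 the difference of Adora2a was −1.32 (FDR 0.117), where it was −2.59 in all mice, and it passed in 6 of 16 fits. Rxrg passed with every mouse left out, with a difference of −2.83 in all mice and −1.81 without D844 (FDR 0.047). Of the 13 markers of other brain regions, 9 rose at 28 days and 2 without D844. Pla2g2d, a secreted phospholipase of immune tissue, stood at 29.1 CPM in D845 and at 1.48 to 4.26 CPM in the other 3. Apoc1, a lipoprotein component, had 7.63, 5.57, 2.79 and 7.26 CPM in rAAV-OVA mice at 28 days against 0.642 to 1.37 CPM in controls. No mouse carried this gene alone, and its difference of −3.14 (SE 0.58, FDR 0.00193) was −2.98 in batch 1.

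The chronic decreases included genes of neuronal channels and synapses. Of 44 voltage-gated channel genes, 2 rose and 5 fell at 5 days and 1 rose and 24 fell at 28 days, yet the difference was called for 4, all above 0. Of 31 genes of synaptic vesicle release, 1 rose at 5 days, 15 fell at 28 days and the difference was above 0 for 4. The median Log2FC of the channels was −0.33 and −0.68, and of the vesicle genes −0.33 and −0.66. Without D844, 12 channels and 5 vesicle genes fell at 28 days and the difference was above 0 for 1 and 3. The medians at 28 days were then −0.516 and −0.405. Of 32 glutamate and GABA receptor subunits, 2 fell at 5 days and 12 at 28 days (8 without D844). The difference was called for 1 in each direction, and for 0 without D844. Some markers of the principal neurons also fell at 28 days. Of 16 CA1 pyramidal cell genes, 6 fell at 5 days and 10 at 28 days (median Log2FC −0.54 and −0.82). Without D844 5 fell at each day, and the medians were about equal (−0.453 and −0.459). Of 16 CA2 and CA3 genes 7 fell at 28 days (7 without D844), and of 19 dentate granule cell genes 7 fell (2 without D844). The part of neuron content in the channel and vesicle genes was not tested.

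Unc13b, which primes synaptic vesicles, stood at 42.3, 32.7, 40.4 and 37.4 CPM in rAAV-OVA mice at 5 days and 29.9, 36.4, 32.5 and 37.8 CPM in controls. The values of 28 days were 17.9, 28.5, 14.7 and 19.5 CPM against 42.9, 36.2, 48.8 and 42.4 CPM. The groups overlapped at 5 days and were apart at 28 days. The difference of 1.26 (SE 0.26, FDR 0.00487) was 0.92 in batch 1 and passed with every mouse left out, and without D844 it was 0.69 (FDR 0.0387). Cacna1g, a T-type calcium channel, differed through day 5, when it was increased (Log2FC 1.00, FDR 0.000103), with a difference of 1.18 (FDR 0.00172). Kcnj6, a G protein-gated potassium channel, was decreased at 28 days (Log2FC −1.25, FDR 0.000253), and its difference of 1.15 (FDR 0.0101) was 0.85 without D844 (FDR 0.0888).

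Acan encodes aggrecan, the proteoglycan of perineuronal nets. It stood at 16.6, 11, 9.13 and 16.5 CPM in rAAV-OVA mice at 5 days and at 6.76, 9.28, 5.68 and 6.42 CPM in controls. After 28 days it measured 2.94, 3.31, 4.41 and 2.84 CPM against 6.99, 8.1, 8.24 and 7.06 CPM. The rAAV-OVA mice were on the whole above the controls at 5 days, with 1 overlap, and all below them at 28 days. The difference was 2.15 (SE 0.28, FDR 0.000124) and 2.18 in batch 1, and with every mouse left out it passed. Klhl40, an adaptor known from muscle, was likewise increased (Log2FC 1.56, FDR 0.000533) and then decreased (−0.98, FDR 0.0178), though the decrease was not called without D844 (FDR 0.0755) or without D845 (FDR 0.0701). Dbh, the enzyme that makes noradrenaline, had a difference of 2.42 (FDR 0.00776) at 0.0685 to 1.76 CPM. Robo3, an axon guidance receptor, had 2.71 (FDR 0.0159), which passed in 13 of 16 fits and was 1.77 without D844 (FDR 0.129). A gene with the symbol Ndor1, which a second gene also bears, was at 0 in all 4 rAAV-OVA mice of 28 days and is uncertain for that reason.

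Several genes of cholesterol synthesis had a lower response at 28 days. None of its 27 genes was called at 5 days, 2 rose and 8 fell at 28 days, and the difference was above 0 for 8 and below 0 for none. The median Log2FC was −0.04 and −0.53, and the median difference was 0.46 in all mice and 0.49 in batch 1. Cyp51, a demethylase of the pathway, stood at 73.5, 76.9, 59.4 and 80.3 CPM in rAAV-OVA mice at 5 days and 68.4, 64.2, 63.3 and 58.2 CPM in controls. On day 28 it reached 35.8, 40.3, 46.2 and 31.2 CPM against 74.4, 59.3, 56.8 and 63 CPM. The 4 mice of 28 days, D844 included, lay below all 12 others, and the difference was 0.90 (SE 0.17, FDR 0.00193) and 1.00 in batch 1. Sqle, the squalene epoxidase, had a difference of 0.83 (FDR 0.00732) that passed with every mouse left out. Without D844 the difference was above 0 for 4 of the 27 genes and below 0 for 1, and without D845 it was above 0 for 3 and 4 rather than 8 genes fell at 28 days.

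**Figure D4:**
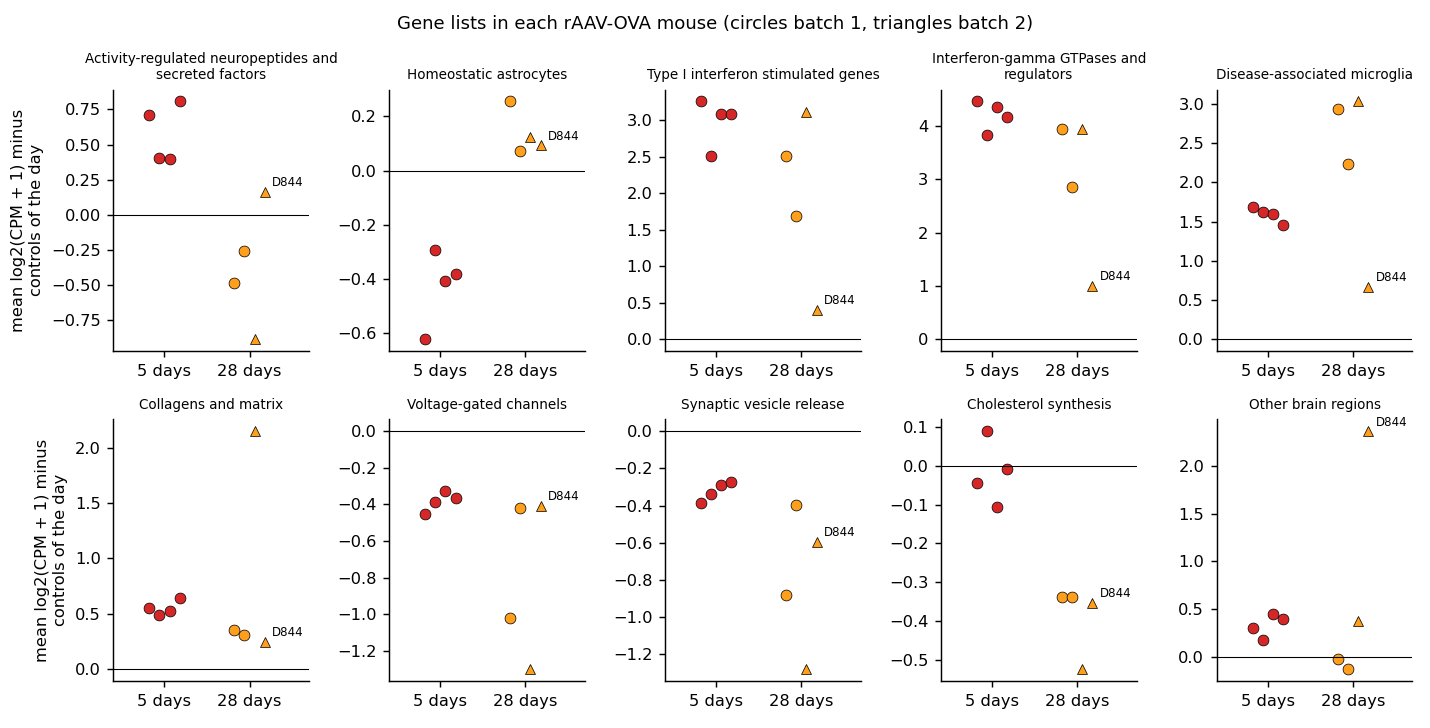
Mean log2(CPM + 1) over each list in each rAAV-OVA mouse at 5 and 28 days, minus the mean of the rAAV-control mice of that day (y axis), with mouse D844 named. Resting astrocyte genes lie below 0 in the 4 mice of 5 days and above 0 in those of 28 days when the controls of both batches are pooled (D667 lies below the controls of its own batch), cholesterol genes lie lowest in all 4 mice of 28 days, and D844 is apart for interferon genes and for markers of other brain regions.

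T cell, cell cycle, MHC class II and monocyte genes were increased at both days, and bulk RNA does not show which cells carried them. Of 24 T cell receptor and signalling genes listed, 10 were among the genes tested. Genes expressed only in the 12 rAAV-OVA mice of 5, 8 and 28 days could not be among them. All 10 rose at each day and none differed. Their median difference was −1.04 in all mice, −1.36 without D844 and −1.64 in batch 1, and all 10 lay below 0. Cd8a, the CD8 coreceptor, stood at 32 to 46.2 CPM in rAAV-OVA mice at 5 days and at 168, 79.1, 6.28 and 171 CPM at 28 days, with at most 1.35 CPM in the controls. Of 40 cell cycle genes, 38 rose at 5 days and 37 at 28 days, and none differed. All 9 MHC class II genes rose at both days, with 1 difference called below 0. Their median difference was −0.33 in all mice, −0.61 without D844, −0.73 without D845 and −2.89 in batch 1. Of 19 genes of infiltrating monocytes, 15 rose at 5 days and 16 at 28 days. Ly6c2, which marks inflammatory monocytes, stood at 83.2 to 149 CPM and then at 29.7, 11, 0.31 and 18.4 CPM, and its difference of 2.60 had an FDR of 0.206. All 3 tested genes of a B and plasma cell list rose at 28 days, although mice without Rag1 make no B cells. Summed, they stood at 21.7 to 93.9 CPM in rAAV-OVA mice of 28 days and 11.7 to 14 CPM in controls. Which cells carried them was not tested. Of 39 respiratory chain genes, none was called at either day.

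The response at 8 days was not a criterion for the classes, although the 7 mice of that day, all of batch 1, were in the fit that gave them. The acute increases had a median Log2FC of 0.31 at 8 days, and 20 of the 110 (18.2%) were increased, against 9.32% of all genes. The acute decreases had −0.35, with 7 of 205 decreased (3.41%), against 0.569% of all genes. The chronic increases had 0.08, with 17 of 198 increased (8.59%), and the chronic decreases −0.28, with 8 of 142 decreased (5.63%). The medians at 5 and 28 days lie on opposite sides of 0 through the choice of the genes, so a day with little response also falls between them. A test of the difference between 5 and 8 days called 28 genes, Inhba, Nptx2, Fosl2 and Acan among them, with 1129 at an unadjusted p under 0.05. Between 8 and 28 days it called none, with a lowest FDR of 0.0616 and 2530 genes at an unadjusted p under 0.05. At 2 days the class medians ran from −0.16 to 0.14, and no gene was called in the response of that day, with 1416 at an unadjusted p under 0.05.

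One of the 3 rAAV-control mice of 8 days, D720, had 9.73 CPM of Cd8a against 1.09 and 0.517 CPM in the other 2, and whether this library matches its label was not tested. Without it, 19 of the acute increases were increased and 5 of the acute decreases were decreased at 8 days, 21 chronic increases were increased and 8 chronic decreases were decreased, and the medians were 0.34, −0.28, 0.19 and −0.38. The difference between 5 and 28 days was then called for 1001 genes and that between 5 and 8 days for 9.

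**Figure D5:**
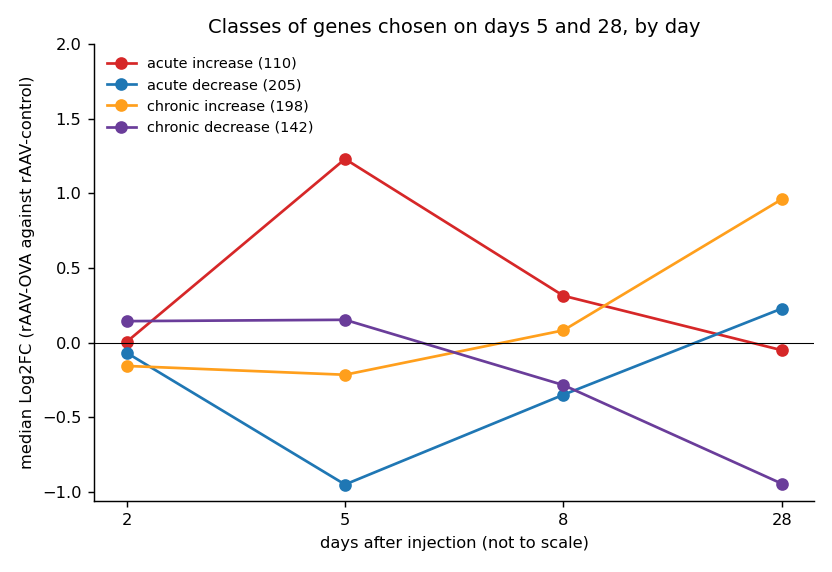
Median Log2FC (y axis) of the 4 classes by day after injection (x axis, days 2, 5, 8 and 28, not to scale), with the number of genes in brackets. The values at 5 and 28 days chose the genes, the medians at 8 days are 0.31, −0.35, 0.08 and −0.28, and those at 2 days, when no gene was called, run from −0.16 to 0.14.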

How the data were processed

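RNA of the left hippocampus was sequenced in 31 mice, of which 16 were compared and all entered the fit. The deposited values were estimated counts per gene (expected counts) that the authors made with salmon (version 1.8.0 in the submitters' processing notes) against GENCODE mouse transcripts, and they had removed genes that reached 15 counts in fewer than 15 mice. A gene expressed only in the 12 rAAV-OVA mice of 5, 8 and 28 days could not pass that filter. Tested were 10 of 24 listed T cell receptor and signalling genes and 9 of 19 cytotoxic effector and IL-2 receptor genes. Of 10 listed B and plasma cell genes, 3 were tested. The counts, whole as deposited, were fitted with the quasi-likelihood model of edgeR 4.0.16 in R 4.3.3, after TMM scaling, with 8 groups as terms beside 2 surrogate variables that sva 3.50.0 estimated. Calls needed an FDR no higher than 0.05 and a Log2FC of 0.66 or more in either direction, and the fit was tested on simulated data. CPM values used TMM-scaled library sizes and no covariates, so a fitted Log2FC need not equal the ratio of CPM. List levels were means of log2(CPM + 1).

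The comparison, the classes and the 46 gene lists were chosen with earlier results of these data known. Genes named were the 6 of each class with the largest difference among those that did not overlap at the defining day, reached 1 CPM and kept their sign in batch 1, up to 4 genes per list with the lowest FDR, and defining markers. Predicted genes without an established name were left out. Glul, Scg2, Vgf, Mfsd2a and Col1a2 were picked after their values were seen, and some genes that met the rule are not reported here. No source says whether the mice of a group shared a litter or a day, so p-values measure the spread between these mice. The genome build of the counts was not that of the promoter table, so no other coordinates are given. Alternatives used DESeq2 1.42.0, ashr 2.2.63, limma 3.58.1, other covariates, other sets of mice (the 12 mice of batch 1 without surrogate variables) and each mouse left out. The cells of both deposited tables differed in 0 cases, and replicate pairs differed by more than sampling noise (chi-square per degree of freedom 11.9 to 296 over 45 pairs).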

Additional observations from a re-analysis of the deposited data

Results flagged for a closer look

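The response differed between 5 and 28 days for 959 genes and between 5 and 8 days for 28, and the response at 28 days differed between batch 1 and batch 2 for 159, by edgeR's quasi-likelihood test.

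In 31 of 359 groups of 4 mice (8.64%), 1 mouse lay far from the other 3 by Dixon's criterion, which chance meets in about 1 of 20. Mouse D845 (rAAV-OVA, 28 days) gave 9 of these. It was highest for Adh1 at 9.15 CPM, Pla2g2d at 29.1, Cldn5 at 65.4, Abcb1a at 59.8, Col6a2 at 28.4, Thbs1 at 23.4 and Hba-a1 at 137 CPM, and its choroid plexus markers summed to 8220 CPM and its blood markers to 367 CPM. Mouse D844 of the same group was highest for Gpr151 at 1.52 CPM, Rxrg at 42.4 and Adora2a at 112 CPM, with 1110 CPM over markers of other brain regions.

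Among the 5-day controls, D745 stood apart for Gabrd at 32.6 CPM, Hba-a1 at 300, Hbb-bt at 106 and Hba-a2 at 407 CPM, and for summed blood markers at 829 CPM. D724 did so for Gzmb at 0.329 CPM, Fbln5 at 10.6 CPM and summed choroid plexus markers at 5760 CPM, D723 for Ltc4s at 2.06 CPM and D755 for Enpp6 at 21.5 CPM. Among the rAAV-OVA mice of 5 days, D725 stood apart for Slc39a12 at 24.3 CPM, Slco1a4 at 16.4 CPM and summed B and plasma cell markers at 41.3 CPM, D786 for Sqle at 52.1 CPM and D787 for summed choroid plexus markers at 388 CPM. Among the 28-day controls, D706 stood apart for Abcb1a at 35.2 CPM and markers of other brain regions at 218 CPM, and D843 for F830016B08Rik at 0.847 CPM. The part of tissue content in these values was not tested.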

How the results depend on the processing

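Both groups of 5 days belong to batch 1, so no mouse of batch 2 shows the response of that day, and the batch 1 comparison at 28 days rests on 2 mice a group. No paired analysis was possible because the labels name each mouse individually and give the groups no shared replicate numbers. The number of genes that differed was 959, and 400 with no covariates, 494 with the batch label as covariate and 1483 with no limit on Log2FC. It was 516 from the 16 mice alone and 288 from the 23 mice of batch 1. From the 12 mice of batch 1 with no surrogate variables, which changed both mice and covariates, it was 0. In groups split by batch it was 3 with the 28-day mice of batch 1 and 1306 with those of batch 2. The 110 acute increases became 62 with no covariates, 70 with the batch label, 0 in the 12 mice, and 1 and 69 with the 28-day mice of batch 1 and of batch 2 in split groups. The 205 acute decreases became 120 with ashr shrinkage, 119 with no covariates, 115 in the 16 mice, 0 in the 12 mice, 66 in the 23 mice and 1 with batch 1 in split groups. The 198 chronic increases became 326 with DESeq2, 120 with ashr shrinkage, 81 with no covariates, 98 with the batch label, 0 in the 12 mice, 30 in the 23 mice, and 1 and 424 with batch 1 and batch 2 in split groups. The 142 chronic decreases became 67 with ashr shrinkage, 62 with no covariates, 77 with the batch label, 56 in the 16 mice, 0 in the 12 mice, 12 in the 23 mice, and 0 and 391 with batch 1 and batch 2 in split groups. The fits with 12 and 23 mice also had fewer samples, and those to the 12 mice and the split groups had no surrogate variables. With each mouse left out, the total ran from 419 (without D844) to 1413 (without D667), acute increases from 65 to 126, acute decreases from 96 to 234, chronic increases from 83 to 374 and chronic decreases from 33 to 389. Over 13 other settings and 89 named genes, 413 of 1138 differences kept their direction but were no longer called, 0 reversed and the others stayed called. The 89 genes were chosen for a called difference in these mice, and those named by class also for their sign in batch 1. The absence of reversals is thus in part set by that choice. The causes of these shifts were not tested. The fits without D724 and D720, and the lists without D844, were chosen after seeing the data.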
